A study of Mus musculus with 4 samples.

Results

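The cellular oxygen-sensing genes were followed in Hepa1-6 cells, an established line from a mouse liver tumour. The set holds 10 genes of the 54838 listed in the deposited files, chosen by symbol: the HIF alpha subunit genes Hif1a, Epas1 and Hif3a, their partner genes Arnt and Arnt2, the prolyl hydroxylase genes Egln1, Egln2 and Egln3, the asparaginyl hydroxylase gene Hif1an, and Vhl. Libraries of total RNA came from 2 groups of 2 samples: NC cells, whose genotype label is wild type for Acvr2a, and KO cells, labelled Acvr2a knockout. Acvr2a encodes a type II receptor for activin, and the series title sets its loss against lactate production and glycolysis. The labels give the KO cells as subclones without saying whether both samples came from 1 subclone, how the gene was disrupted, or under which oxygen level and at which density the cells were grown.

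Hypoxia-inducible factors (HIFs) are dimers of an oxygen-labile alpha subunit and a stable ARNT subunit. In oxygenated cells the EGLN enzymes (also called PHDs) hydroxylate prolines of the alpha subunit, the VHL protein binds the hydroxylated form as the substrate receptor of a ubiquitin ligase, and the proteasome degrades it, while HIF1AN (also called FIH) hydroxylates an asparagine and blocks the binding of coactivators. This control acts on protein, so the RNA level of an alpha subunit does not report its activity. EGLN3 and EGLN1 are themselves known HIF target genes in many cell types, which forms a feedback loop, and EGLN2 is usually not counted among them.

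The prolyl hydroxylase genes carried the largest differences between the groups, and their promoters are shown for that reason. RefSeq promoters of GRCm38.p6 were given for 9 of the 10 genes, the exception being Epas1, each running from 250 bases before to 50 bases after an annotated start. Both forms of the core of the HIF-binding element, ACGTG and GCGTG, were searched on both strands, and matches are in capitals. ACGTG overlaps the E-box CACGTG, so a match can also be part of that motif.
Egln3, chr12:54203825-54204124, minus strand: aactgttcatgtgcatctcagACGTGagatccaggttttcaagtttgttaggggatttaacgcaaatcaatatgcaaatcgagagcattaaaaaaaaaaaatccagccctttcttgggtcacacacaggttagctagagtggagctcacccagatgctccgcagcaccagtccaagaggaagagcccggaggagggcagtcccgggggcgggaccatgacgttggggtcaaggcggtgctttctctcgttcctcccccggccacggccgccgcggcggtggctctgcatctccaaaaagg
Egln1, chr8:124949205-124949504, minus strand: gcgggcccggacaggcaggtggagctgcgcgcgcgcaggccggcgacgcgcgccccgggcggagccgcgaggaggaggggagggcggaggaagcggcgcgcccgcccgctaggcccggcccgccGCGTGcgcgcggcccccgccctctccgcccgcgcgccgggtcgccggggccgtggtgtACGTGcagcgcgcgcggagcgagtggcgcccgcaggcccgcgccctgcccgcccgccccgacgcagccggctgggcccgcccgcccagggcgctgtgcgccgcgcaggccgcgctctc
Egln2, chr7:27166753-27167052, minus strand: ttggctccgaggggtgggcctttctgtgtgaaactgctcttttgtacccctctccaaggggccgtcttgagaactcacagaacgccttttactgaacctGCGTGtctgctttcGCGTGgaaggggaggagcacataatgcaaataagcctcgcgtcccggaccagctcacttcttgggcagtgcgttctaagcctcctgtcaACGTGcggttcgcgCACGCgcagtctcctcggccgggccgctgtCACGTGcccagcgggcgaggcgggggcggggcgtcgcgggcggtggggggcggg
The Egln3 window held 1 match, an ACGTG starting at position -229 from the start site, and the Egln1 window held 2, a GCGTG at position -126 and an ACGTG at position -68. The Egln2 window shown held 6, of which 2 make up the 2 strands of 1 CACGTG across the start site. A second RefSeq start of Egln2, whose window (chr7:27165679-27165978, minus strand) is not printed, held 1 match, a GCGTG at position -116. At least 1 match was present in 14380 of 32851 mouse promoter windows of this length (43.8%). Among the prolyl hydroxylase genes the motif was therefore present in Egln3 and Egln1, which were higher in KO, and in Egln2, which was lower. The windows of Hif1a and Arnt, which were not called, held 3 and 1 matches, and that of Hif3a, which was not tested, held 2. Of the 3 matches of Hif1a, 2 make up the 2 strands of 1 CACGTG. The windows of Vhl, also higher in KO, and of Hif1an and Arnt2 held no match.

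The libraries held 11597923 to 13910582 counts. The Pearson correlation of log2 CPM (counts scaled to library size) over 12510 tested genes, which do not stand for replicates, was 0.989 within each group and 0.963 to 0.972 between groups. Acvr2a was counted 81 and 108 times in NC and 75 and 97 times in KO, with an adjusted p of 0.433 (log2 fold change -0.21, SE 0.20), so its RNA did not separate the labels. Its exons overlap Orc4 on the other strand, which was counted 587 and 692 times in NC and 391 and 457 times in KO (log2 fold change -0.68, adjusted p = 1.66e-05). Reads from the overlap cannot be told apart unless the counting used strand, which is not stated. Of 10 hepatocyte and hepatoma markers 9 were tested, and their summed level was 3743 and 3501 CPM in NC and 3794 and 3830 CPM in KO. Afp (log2 fold change -1.21, adjusted p = 1.01e-10), Hnf4a (-0.995, adjusted p = 4.27e-09) and Foxa2 (-0.89, adjusted p = 3.06e-08) fell, and Alb (0.41, adjusted p = 0.00224) and Trf (0.54, adjusted p = 4.31e-05) rose. Ttr had at most 1 count. Endothelial markers, relevant because endothelium expresses Epas1 strongly, summed to between 0.835 and 2.11 CPM, and Cdh5, Tek, Emcn and Erg were at 0. The summed level of 7 leukocyte markers was 22.7 and 25.2 CPM in NC and 48.9 and 61.4 CPM in KO, nearly all from Cd68, with Cd3e at 0 and Ptprc at 2 counts or fewer. Of 7 fibroblast and stellate markers Col1a1 and Des rose in KO, from 6 and 5 to 38 and 41 counts and from 43 and 55 to 126 and 126 counts, and Lum was at 0. The summed level was 1472 and 1483 CPM in NC and 1618 and 1694 CPM in KO, mostly from Dcn. The part of these markers in the results below was not tested.

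Of the 10 genes 9 were tested and Hif3a was not. Egln3, Egln1 and Vhl rose in KO and Egln2 fell (edgeR quasi-likelihood test, Benjamini-Hochberg adjusted p under 0.05 over all tested genes). These are 4 of 9 tested genes, while 37.9% of all tested genes passed, so the share passing was near the background. In single directions the background was 19.7% for higher and 18.2% for lower. The median log2 fold change over the 9 genes was 0.084, against -0.0037 over all tested genes. The CPM values of the groups did not overlap for 8 of the 9, against 69.4% of tested genes. All adjusted p-values below come from this test unless another is named. The share of all tested genes passing differed between the alternative analyses: 25.7% with DESeq2, 38.0% with RLE scaling, 23.0% with no filter on low counts, 38.7% with at least 1 CPM in 2 libraries, 39.4% with robust fitting and 40.0% with the replicate number as a block. It was 17.3% and 16.8% in the filtered fits on TPM (pseudocounts of 1 and 0.1) and 0% in the unfiltered one. Without NC 1, NC 2, KO 1 or KO 2 it was 27.2%, 29.9%, 35% and 27.9%.

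**Figure D1:**
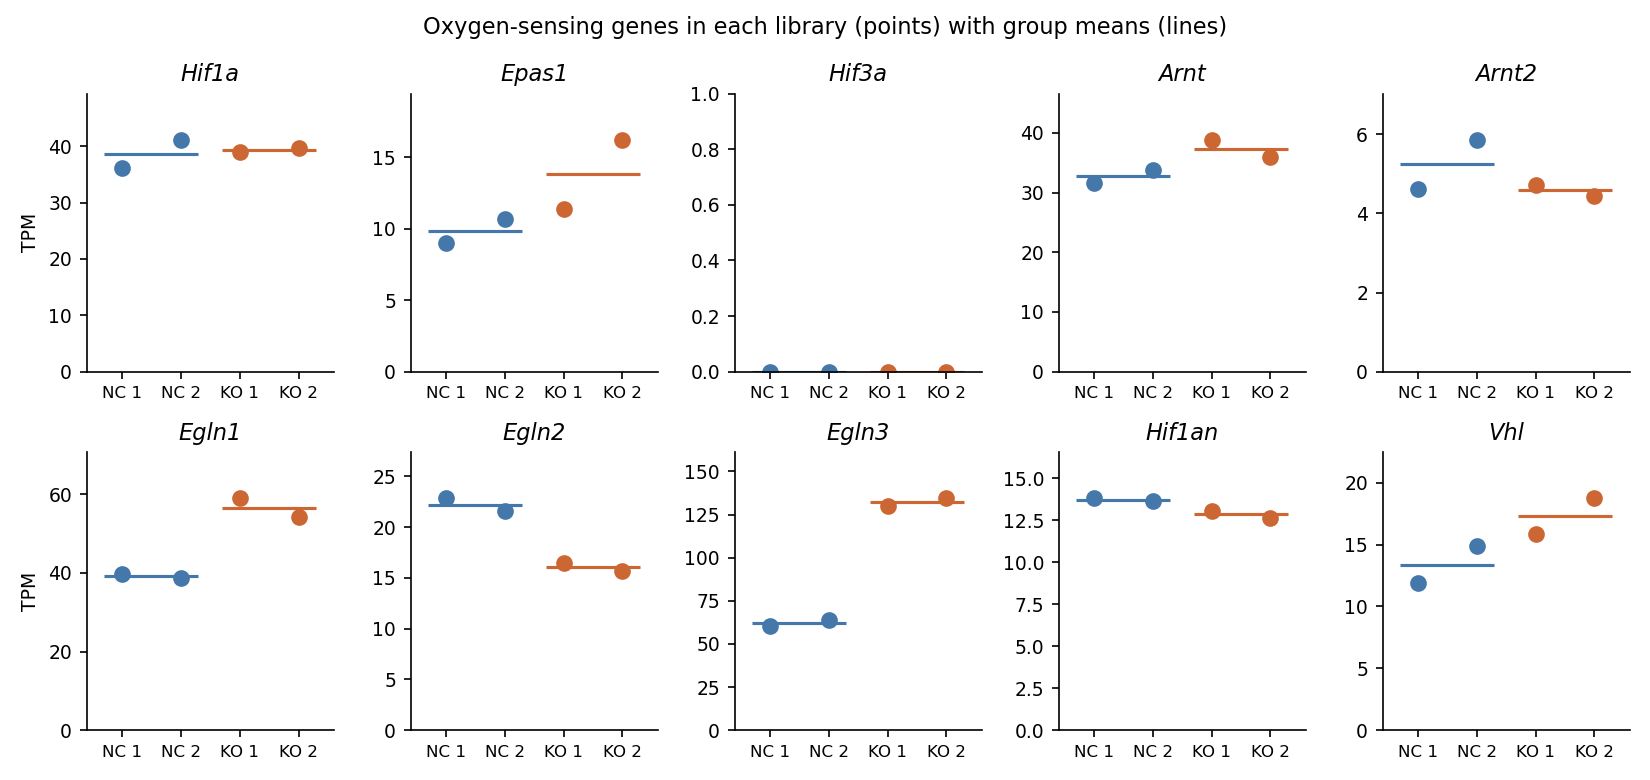
TPM (length-scaled transcript abundance) on the y axis of each of the 10 genes in the 4 libraries on the x axis (points, NC blue, KO orange), with the mean of the 2 libraries of each group as a line. The KO libraries lie above both NC libraries for Egln1, Egln3, Vhl, Epas1 and Arnt and below both for Egln2 and Hif1an. Of these, Epas1, Arnt and Hif1an did not pass an adjusted p of 0.05 in the main test. Hif3a is at 0 in each library.

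Egln3 (ENSMUSG00000035105.5, chromosome 12, 54178981 to 54203860, minus strand) encodes PHD3. It was at 137.0 and 139.0 CPM in NC 1 and NC 2 and at 271.4 and 293.2 CPM in KO 1 and KO 2. Both KO libraries lay far above both NC libraries, and the replicates of NC were nearly equal. The level rose 2.05-fold (95% interval 1.80 to 2.33), or 1.03 on the log2 scale with an SE of 0.09 (adjusted p = 1.57e-09). Over the 13 alternative analyses the log2 fold change stayed between 0.97 and 1.09.

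Egln1 (ENSMUSG00000031987.6, chromosome 8, 124908587 to 124949324, minus strand) encodes PHD2, the isoform held to set HIF1A stability in most oxygenated cells. It was at 125.2 and 115.8 CPM in NC and at 170.6 and 163.7 CPM in KO. Again the groups did not overlap, and the increase was smaller than for Egln3. The fold was 1.39 (95% interval 1.22 to 1.58), or 0.47 on the log2 scale with an SE of 0.09 (adjusted p = 0.000215).

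Egln2 (ENSMUSG00000058709.11, chromosome 7, 27158658 to 27166802, minus strand) encodes PHD1 and moved the other way. It was at 33.8 and 31.2 CPM in NC and at 23.8 and 22.1 CPM in KO. Both KO libraries lay below both NC libraries. Its log2 fold change was -0.50 (SE 0.12, adjusted p = 0.00166), so that its level in KO was 0.707 of that in NC (95% interval 0.596 to 0.839). Its exons overlap those of Cyp2t4 on the other strand, which had 0 counts in the 4 libraries. The calls for Egln1, Egln2 and Egln3 held in 12 of 13 alternative analyses and were lost in the remaining one, limma on unfiltered TPM, with adjusted p of 0.0896, 0.111 and 0.0754.

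Because TPM is scaled for transcript length, it allows levels of different genes to be compared within a library. The 3 prolyl hydroxylase genes summed to 122.7 and 124.3 TPM in NC and to 205.3 and 204.3 TPM in KO. Egln3 took 49.0% and 51.6% of this sum in NC and 63.3% and 65.8% in KO, a mean of 50.3% ± 1.82 against 64.5% ± 1.79 (SD, n = 2). Egln1 took 32.3% and 31.0% in NC and 28.7% and 26.5% in KO, so its share was lower although its level was higher. The share of Egln2 went from 18.6% and 17.3% in NC to 8.0% and 7.66% in KO. Each of these shares separated the groups, but with 2 samples a group the two-sided exact permutation test cannot go below its p of 0.333, the value that all 7 shares tested here received (0.333 also after adjustment over the 7).

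The ratio between 2 genes of one library does not depend on the library's scaling. There were 2.64 and 2.98 Egln3 transcripts per Egln2 transcript by TPM in NC and 7.91 and 8.59 in KO. For Egln1 over Egln2 the ratio was 1.74 and 1.79 in NC and 3.59 and 3.46 in KO, 2.0 times as high on average. Without length scaling, in plain counts, the Egln1 to Egln2 ratio was 3.71 and 3.71 in NC and 7.18 and 7.39 in KO. The shift within the hydroxylase family was thus several times the spread between replicates on both scales.

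**Figure D2:**
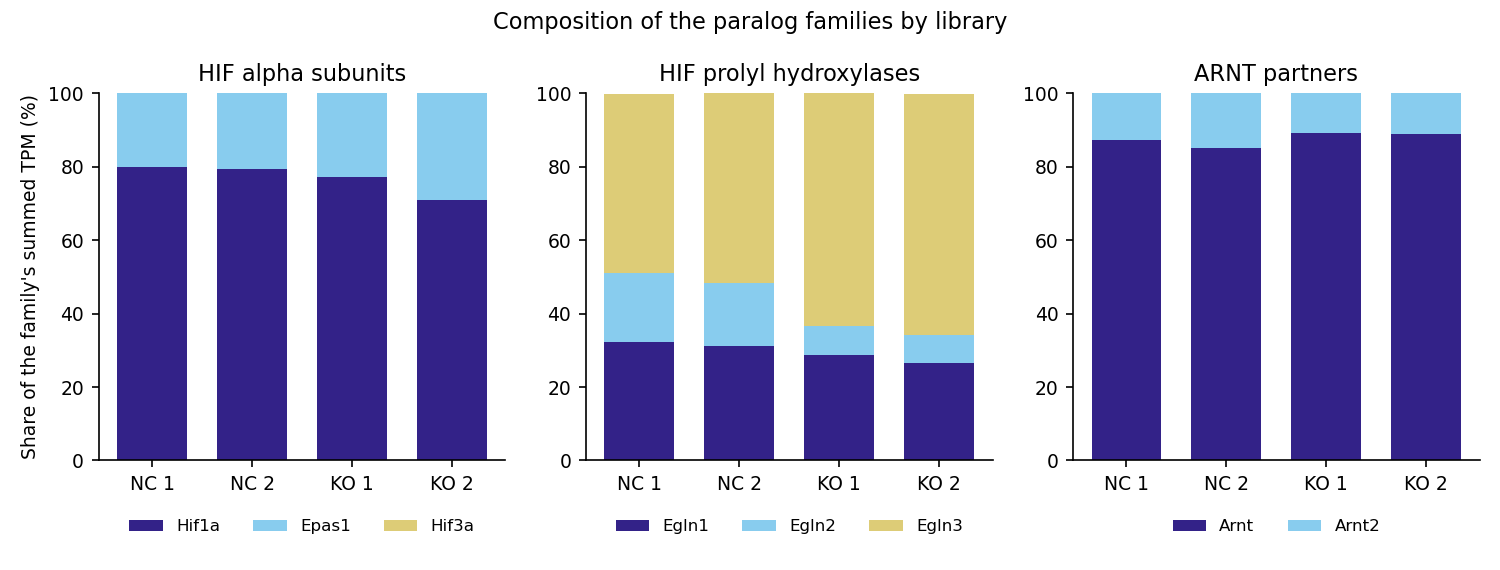
Stacked bars give, for each library on the x axis, the percentage of a family's summed TPM taken by each gene, for the HIF alpha subunits, the prolyl hydroxylases and the ARNT partners. The Egln3 segment grows from 49.0% and 51.6% in NC to 63.3% and 65.8% in KO, while the Egln2 segment shrinks from 18.6% and 17.3% to 8.0% and 7.66%.

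Among the alpha subunits, Hif1a (ENSMUSG00000021109.13, chromosome 12, 73901375 to 73947530, plus strand), which encodes the broadly expressed HIF1 alpha, was at 148.4 and 162.4 CPM in NC and at 139.3 and 149.2 CPM in KO. The groups overlapped. Its log2 fold change of -0.11 (SE 0.09, 95% interval -0.30 to 0.08, adjusted p = 0.381) was within the replicate spread, and on the TPM scale it was 0.03, with the other sign. The interval leaves room for a level in KO between 0.813 and 1.06 of that in NC. Its exons overlap Gm49321 on the same strand and Gm15283 on the other, which had at most 5 and 4 counts in a library. The deposited effective length of Hif1a, by which TPM divides, was 4375 and 4409 bases in NC and 4144 and 4181 bases in KO. The part of this length in the sign on the TPM scale was not tested.

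Epas1 (ENSMUSG00000024140.10, chromosome 17, 86753700 to 86833410, plus strand) encodes HIF2 alpha, which in liver is known for control of erythropoietin and lipid handling. It was at 44.7 and 50.3 CPM in NC and at 51.9 and 60.9 CPM in KO. The KO libraries lay above the NC libraries, but KO 1 by little. The difference did not pass, at 0.25 on the log2 scale with a 95% interval of 0.03 to 0.46 (SE 0.11, adjusted p = 0.0666). It passed without KO 1 (0.36, adjusted p = 0.0123) and without NC 2 (0.34, adjusted p = 0.0439), and it was 0.12 without KO 2 and 0.16 without NC 1. The TPM of Epas1 in KO 2, 16.2, stood further from the 11.4 of KO 1 than the counts did. The deposited effective length, by which TPM divides, was 4168 bases in KO 2 and 5271 to 5278 bases in the other 3 libraries.

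Hif3a (ENSMUSG00000004328.15, chromosome 7, 17031507 to 17062427, minus strand), whose product can oppose the other alpha subunits, had 0 counts in each of the 4 libraries. A count of 0 allows up to 3 counts, or 0.217 to 0.264 CPM depending on the library. Hif1a took 80.0% and 79.4% of the alpha subunit TPM in NC and 77.3% and 70.9% in KO, and Epas1 took the rest. In plain counts there were 3.32 and 3.23 Hif1a reads per Epas1 read in NC and 2.68 and 2.45 in KO. The groups did not overlap in this ratio either.

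The partner genes differed little. Arnt (ENSMUSG00000015522.18, chromosome 3, 95434388 to 95497240, plus strand) was at 93.0 and 94.9 CPM in NC and at 98.0 and 101.2 CPM in KO, with a log2 fold change of 0.084 (SE 0.09, 95% interval -0.10 to 0.27, adjusted p = 0.497). Arnt2 (ENSMUSG00000015709.9, chromosome 7, 84246278 to 84410176, minus strand), the paralog best known from the nervous system, was at 25.6 and 27.1 CPM in NC and at 23.7 and 22 CPM in KO, with a log2 fold change of -0.21 (SE 0.12, 95% interval -0.46 to 0.05, adjusted p = 0.196). Neither gene passed in any of the 13 alternative analyses. Arnt took between 85.2% and 89.2% of the TPM of the pair in the 4 libraries.

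Hif1an (ENSMUSG00000036450.4, chromosome 19, 44562850 to 44576274, plus strand) was at 76.0 and 72.7 CPM in NC and at 65.4 and 66.6 CPM in KO. The KO values were the lower ones without overlap, but the difference did not pass (log2 fold change -0.17, SE 0.09, adjusted p = 0.158, 95% interval -0.37 to 0.02). Vhl (ENSMUSG00000033933.13, chromosome 6, 113623959 to 113631633, plus strand) was at 28.5 and 32.5 CPM in NC and at 34.8 and 40.3 CPM in KO. The nearest libraries of the 2 groups, NC 2 and KO 1, were closer to each other than either was to its own replicate. The rise of 0.30 on the log2 scale (SE 0.12, 95% interval 0.06 to 0.53) passed narrowly (adjusted p = 0.0433). It did not pass in 7 of 13 alternative analyses, among them DESeq2 (adjusted p = 0.157), no filter on low counts (0.0689), the 3 fits on TPM (0.166 to 0.321), and the fits without NC 1 (log2 fold change 0.20, 0.304) or without KO 2 (0.19, 0.328).

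**Figure D3:**
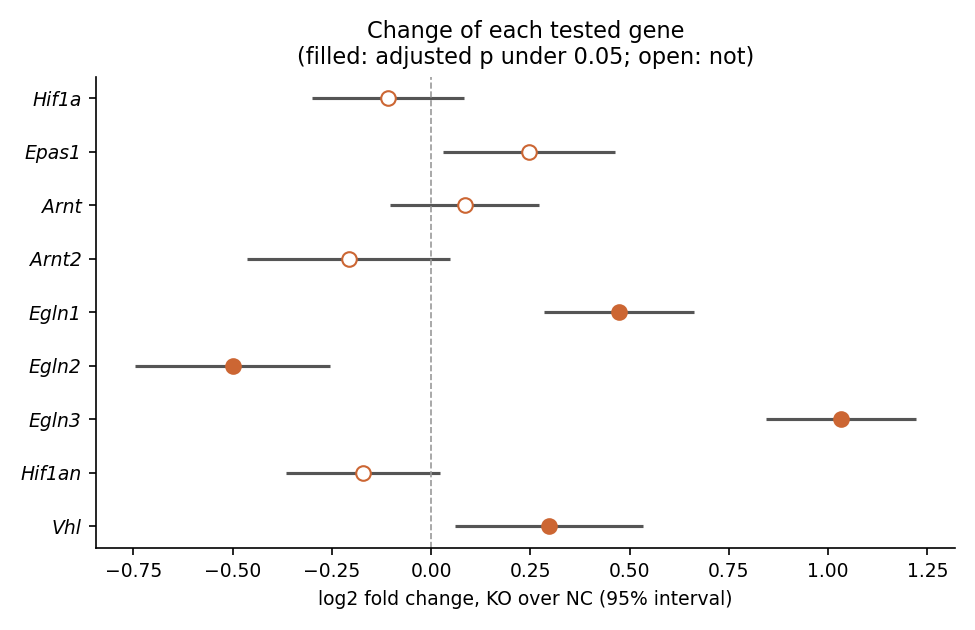
Points give the log2 fold change of KO over NC (x axis) for the 9 tested genes (y axis), with 95% intervals as lines; filled points passed an adjusted p of 0.05. Egln3 lies at 1.03, Egln1 at 0.47 and Vhl at 0.30, Egln2 lies at -0.50, and the intervals of Hif1a, Arnt, Arnt2 and Hif1an include 0.

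Ordered by mean TPM in NC, Egln3 led at 62.2 ± 2.83 (SD, n = 2), followed by Egln1 (39.1 ± 0.77), Hif1a (38.6 ± 3.55), Arnt (32.7 ± 1.58), Egln2 (22.2 ± 0.91), Hif1an (13.7 ± 0.11), Vhl (13.4 ± 2.14), Epas1 (9.84 ± 1.17) and Arnt2 (5.25 ± 0.87). The neighbours Egln1 and Hif1a, and Hif1an and Vhl, overlapped in their libraries. In KO the order began with Egln3 (132.2 ± 3.16), Egln1 (56.6 ± 3.37), Hif1a (39.2 ± 0.49) and Arnt (37.4 ± 2.07), and it ended with Arnt2 (4.59 ± 0.19). Between them Vhl (17.3 ± 2.05), Egln2 (16.0 ± 0.56), Epas1 (13.8 ± 3.41) and Hif1an (12.9 ± 0.28) followed in that order. The libraries of Epas1 overlapped those of each of these neighbours, and Vhl overlapped Egln2, while Hif1an lay below Vhl and Egln2 without overlap. The sum of hydroxylase transcripts per alpha subunit transcript was 2.72 and 2.40 in NC and 4.08 and 3.66 in KO.

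**Figure D4:**
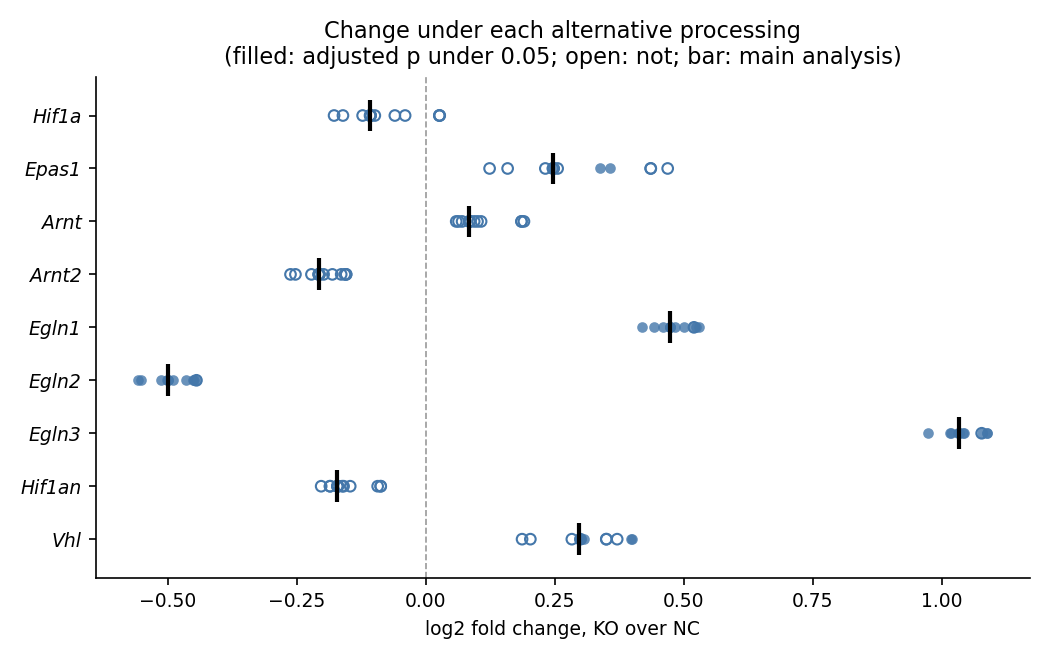
The log2 fold change of KO over NC (x axis) of each tested gene (y axis) under 13 alternative analyses (points, filled where the adjusted p was under 0.05) and in the main analysis (black bar). Egln3, Egln1 and Egln2 stay apart from 0 throughout, whereas Hif1a reaches 0.03 on the TPM scale and Epas1 ranges from 0.12 to 0.47.

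Genes for the VHL ubiquitin ligase and for other proteins linked to HIF turnover were compared next. The list is not limited to steps after hydroxylation, and it mixes genes with opposite reported roles. Of 30 genes for the VHL ubiquitin ligase and HIF turnover, all tested, 12 fell and 6 rose (60.0% called, against 37.9% of all tested genes, of which 18.2% fell), and the median log2 fold change was -0.16. The ligase subunit genes Rbx1 (-0.50) and Eloc (-0.38) fell, while Cul2 (-0.27, adjusted p = 0.0634) and Elob (-0.13, adjusted p = 0.259) did not pass. Of the ubiquitin-conjugating enzyme genes Ube2d3 fell by 0.48 on the log2 scale (SE 0.10) and Ube2d1 by 0.39 (SE 0.10). Ube2d2a did not pass (-0.15, adjusted p = 0.195). Ptges3, which encodes the HSP90 cochaperone p23, fell by 0.55 on the log2 scale (SE 0.09), from 1740 and 1871 counts in NC to 1306 and 1317 in KO. Wsb1, a ubiquitin ligase gene reported to act on VHL and itself a HIF target, rose (0.65, SE 0.10), and so did Os9 (0.57, SE 0.10), whose product was described as a partner of EGLN enzymes. The largest changes in the list were those of Trp53 (-0.71, SE 0.09) and Mdm2 (0.69, SE 0.09), 2 genes with many roles outside oxygen sensing. In the 2 filtered fits on TPM 11 genes of the list were called, and Eloc was not among them (adjusted p = 0.0892 and 0.0911), nor did it pass without KO 1 (0.0842).

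Coactivators and other modulators of HIF transcription passed at a share near the background. Of 24 genes 22 were tested, 4 rose and 3 fell (31.8% called, against 37.9% of all tested genes), and the median log2 fold change was 0.0041. The histone acetyltransferase genes Ep300 (0.14, adjusted p = 0.271) and Crebbp (-0.04, adjusted p = 0.834, its sign changing under 5 of 13 alternatives), which encode the coactivators whose binding HIF1AN blocks, did not pass. Apex1, a DNA repair and redox factor gene, fell by 0.84 on the log2 scale (SE 0.10), from 1130 and 1256 to 710 and 701 counts. Ncoa1 rose (0.90, SE 0.19) and Ruvbl1 fell (-0.48, SE 0.10), but both calls were lost in the fits on TPM (adjusted p = 0.0680 to 0.305). The number called in this list was 3 without NC 1, 4 without NC 2 and 4 without KO 2, and it was 1 in the filtered fits on TPM.

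ARNT also dimerises with AHR, the dioxin receptor, and ARNT belongs with circadian factors to the bHLH-PAS family. Of 16 such genes 9 were tested, and 5 rose and 1 fell (66.7% called, against 37.9%). Ahr rose from 1119 and 1378 counts in NC to 1595 and 1687 in KO (log2 fold change 0.31, SE 0.09, adjusted p = 0.00811), a call that was lost without NC 1 (adjusted p = 0.0677) and in the fits on TPM (0.0689 to 0.123). Of 8 AHR target genes 4 were tested, and 1 was called (25%, against 37.9%). This was Cyp1a1, the best known of them, which fell from 850 and 1143 counts to 816 and 819 (log2 fold change -0.36, SE 0.10, adjusted p = 0.00407), though not without NC 2 (-0.29, adjusted p = 0.0766) or in the fits on TPM (0.146 to 0.233). Of the 6 clock genes tested in this list Arntl (0.60, SE 0.13), Arntl2 (0.73, SE 0.14), Per1 (0.42, SE 0.10) and Per3 (1.24, SE 0.27) rose, with Per3 going from 26 and 40 counts to 78 and 87. Clock (-0.12, adjusted p = 0.443) and Per2 (-0.51, adjusted p = 0.283) did not pass. The calls for Arntl2 and Per1 were lost in the fits on TPM (adjusted p = 0.0835 to 0.322). In the filtered fits on TPM 2 genes of this list were called.

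Other dioxygenases that use oxygen and 2-oxoglutarate, or oxygen alone, were compared as relatives of the HIF hydroxylases. Of 27 genes 25 were tested, 8 rose and 2 fell, and the median log2 fold change was 0.15. The called genes were 40.0% of those tested, near the background of 37.9% in either direction. In single directions the background was 19.7% for higher and 18.2% for lower, so the calls of this list leaned to higher. The histone demethylase genes Kdm3a (0.51, SE 0.10) and Kdm4b (0.63, SE 0.11), both known HIF targets, rose, from 1403 and 1691 to 2121 and 2550 counts and from 359 and 504 to 711 and 693 counts. Asph, an aspartyl hydroxylase gene (0.66, SE 0.10), and Tet2, a DNA demethylase gene (0.55, SE 0.11), also rose. The call for Tet2 was lost in the filtered fit on TPM with a pseudocount of 0.1 (adjusted p = 0.0502) and in the unfiltered one (0.222). Ado, a thiol dioxygenase gene whose product is a HIF-independent oxygen sensor, fell by 0.47 on the log2 scale (SE 0.10), and Riox2 fell by 0.62 (SE 0.15). The calls for Ado and Riox2 were lost in the fits on TPM, with adjusted p from 0.0685 to 0.170, and those fits with a filter called 5 or 3 genes of the list.

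HIF target genes were counted beside the sensors, in a list that did not hold Egln1 or Egln3. It shares 4 genes with the dioxygenase list, among them Kdm3a and Kdm4b. It also shares Wsb1 with the VHL ligase and turnover list and 1 gene with the coactivators. Shared genes are counted in both lists. Of 54 genes 47 were tested, and 38 of them rose and none fell, with a median log2 fold change of 0.52. The changes of the tested genes ran from 0.013 to 1.65. The background was 19.7% for higher genes. Earlier results of these data were known when the list was written, so its direction is a description. Hmox1, the heme oxygenase gene, was at 416 and 511 counts in NC and at 957 and 1189 in KO (log2 fold change 1.13, SE 0.11, adjusted p = 4.49e-09), close to the change of Egln3. The lactate dehydrogenase gene Ldha was among the 9 that did not pass (0.050, adjusted p = 0.729). In the filtered fits on TPM 25 and 24 genes of the list were called.

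Genes linked more to HIF2 than to HIF1 did not move one way. Of 20 genes 11 were tested, 3 rose and 3 fell (54.5% called, against 37.9%), and the median was -0.023, with the other sign under 7 of 13 alternatives. Irs2, an insulin receptor substrate gene, rose from 536 and 706 to 1015 and 1244 counts (log2 fold change 0.78, SE 0.10, adjusted p = 1.20e-06). Slc40a1, the iron exporter gene, rose (0.34, SE 0.11), but not without NC 2 (0.21, adjusted p = 0.250), without KO 2 (0.0600), with DESeq2 (0.0608) or in the fits on TPM (0.0762 to 0.158). Igfbp1 (-0.54, SE 0.09) and the cyclin gene Ccnd1 (-0.43, SE 0.10) fell, Ccnd1 not in the fits on TPM (adjusted p = 0.330 to 0.538). Mmp14, a matrix metalloproteinase gene, passed narrowly (-0.24, SE 0.09, adjusted p = 0.0484) and did not pass in 8 of 13 alternatives, with adjusted p up to 0.523. Epo, the erythropoietin gene, had 0 counts in each library, which allows up to 3. Igfbp1 is also known to answer to other pathways. In the filtered fits on TPM 3 genes of the list were called.

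**Figure D5:**
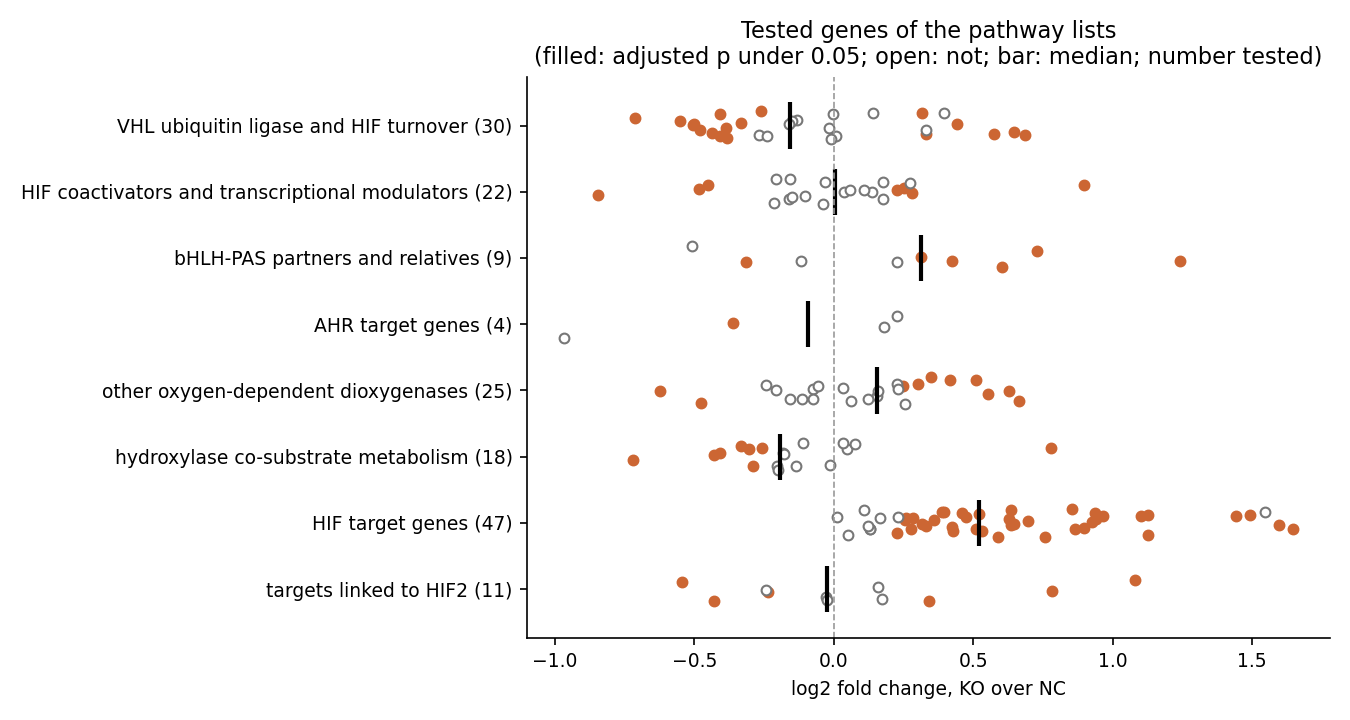
Each point is 1 tested gene of a pathway list (y axis, number tested in brackets) at its log2 fold change of KO over NC (x axis), filled where the adjusted p was under 0.05, with the list's median as a black bar. The HIF target list lies to the right of 0 with a median of 0.52, while the medians of the other lists lie between -0.19 and 0.31.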

How the data were processed

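Total RNA from 4 samples of Hepa1-6 cells was sequenced with a directional library kit, per the labels' protocols. The submitters' processing notes list FastQC, STAR, RSEM, DESeq2 and the builds GRCm38 and mm10 without the role of each; versions and settings were not given in the sources used here. The deposited expected counts are estimated counts of each gene in the column layout RSEM writes, without normalisation, per the file headers. Those of the 10 genes were whole numbers in each library. The deposited TPM and FPKM values are length-scaled by the authors, per the file headers; FPKM was not used. The deposited effective lengths were used only to describe TPM values. The strand setting of the counting was not given in the sources used here.

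Expected counts were rounded (changing a library total by at most 0.000188%), filtered with filterByExpr, which left 12510 genes, scaled with TMM and tested with edgeR's quasi-likelihood test (edgeR 4.0.16 in R 4.3.3). The model held no term beside the group, and Benjamini-Hochberg adjustment was made over all tested genes, with a threshold of 0.05. Standard errors were taken from the F statistic. CPM are counts scaled to the TMM-adjusted library size. Intervals and the limit for a count of 0 cover counting error and the spread of these samples only; nothing says that the samples came from separate cultures, so the p-values may measure technical spread. Alternatives were DESeq2 1.42.0, RLE scaling, 2 other filters, limma 3.58.1 on log2(TPM + pseudocount) with pseudocounts of 1 and 0.1, robust fitting, leaving out each library, and the replicate number as a block. The test was also run on simulated counts with a common dispersion and independent libraries. Such counts cannot show how the test performs where dispersion differs between genes or where samples share a culture.

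The members, the lists and the tests were chosen with earlier results of these data known. From each list up to 6 genes with the lowest p past 0.05 could be named. Rbx1, Eloc, Cul2, Elob, Ube2d1, Ube2d2a, Ep300, Crebbp and Ldha, and Clock, Per2, Orc4 and untested or marker genes, were picked with their values in view. Some genes that the lists count are not reported here by name. Aldoa stands on 2 rows, of which the one with more counts was used. Gene positions are from GENCODE M21 on GRCm38 through the gene ID, which matched with its version for 10 of the 10 genes. Promoter sequences are RefSeq's for GRCm38.p6.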

Additional observations from a re-analysis of the deposited data

How the results depend on the processing

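Egln3, Egln1 and Egln2 kept their direction under all 13 alternatives and their call under 12. Limma on unfiltered log2(TPM + 1) called 0 of 20640 genes, 0 of the 9 members and 0 genes of every list, with 4506 genes at an unadjusted p under 0.05, among them these 3 members. The filtered fits on TPM called 2158 and 2099 genes with pseudocounts of 1 and 0.1, against 4741 in the main analysis and 3217 with DESeq2; the cause was not tested. In the same order they called 11 and 11 genes of the VHL ligase and turnover list (18 in the main analysis), 1 and 1 of the coactivators (7), 2 and 2 of the bHLH-PAS genes (6), 0 and 0 of the AHR targets (1), 5 and 3 of the dioxygenases (10), 1 and 1 of the co-substrate genes (8), 25 and 24 of the HIF targets (38) and 3 and 3 of the genes linked to HIF2 (6). DESeq2 called 4 co-substrate genes.

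Leaving out 1 library, where the lone sample of a group is assumed to vary like the other group, gave 3507 to 4488 called genes and 3 to 5 called members. It gave 13 to 17 calls for the VHL list, 3 to 6 for coactivators, 4 to 7 for bHLH-PAS genes, 0 to 2 for AHR targets, 7 to 10 for dioxygenases, 4 to 8 for co-substrate genes, 30 to 35 for HIF targets and 4 to 6 for genes linked to HIF2. The shift in share was 12.9 to 15.5 points for Egln3, -5.17 to -2.98 for Egln1, -10.8 to -9.50 for Egln2, -8.78 to -2.38 for Hif1a and 1.84 to 3.82 for Arnt. In plain counts, which weigh genes by length, it was 12.3 points for Egln3, -5.99 for Egln1 and -6.30 for Egln2. The replicate numbers do not pair the samples by the labels, and the deviations of same-numbered samples correlated at -0.012; with the replicate number as a replicate block 5006 genes and 5 members were called, Epas1 (adjusted p = 0.0427) being the added one.

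Signs changed for values near 0. Hif1a was 0.026, 0.027 and 0.026 in the fits on TPM (filtered with pseudocounts of 1 and 0.1, then unfiltered). Crebbp was 0.040, 0.052 and 0.040 in the same fits, 0.10 without NC 2 and 0.039 without KO 2, within -0.17 to 0.10 over the analyses leaving out 1 library. Ldha was -0.055 without KO 1 and up to 0.15 without another. The median of the coactivators was -0.0098 without a filter and -0.037 without KO 1 (to 0.091 without NC 2), and that of the AHR targets was 0.0017 without NC 2 (to -0.23 without NC 1). The median of the genes linked to HIF2 was 0.076 with at least 1 CPM in 2 libraries, 0.043, 0.044 and 0.043 in the fits on TPM, 0.040 without NC 1, 0.039 without NC 2, 0.023 without KO 1 and -0.020 without KO 2.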

Other observations

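Enzymes that make or consume the co-substrate 2-oxoglutarate and the inhibitors succinate and fumarate set the conditions under which the HIF hydroxylases work. Of 18 such genes, all tested, 7 fell and 1 rose, with a median log2 fold change of -0.19. The called genes were 44.4%, near the 37.9% of all tested genes in either direction. In single directions the background was 18.2% for lower and 19.7% for higher, so the calls of this list leaned to lower. Glud1, which encodes glutamate dehydrogenase, fell from 2089 and 2553 counts in NC to 1571 and 1409 in KO (log2 fold change -0.72, SE 0.09, edgeR quasi-likelihood adjusted p = 1.18e-06). The fumarate hydratase gene Fh1 fell by 0.43 (SE 0.10), from 869 and 931 to 697 and 724 counts. The 2-oxoglutarate dehydrogenase gene Ogdh fell by 0.41 (SE 0.10), from 2831 and 3482 to 2695 and 2327 counts. The calls for Fh1 and Ogdh were lost in the fits on TPM (adjusted p = 0.0708 to 0.250). D2hgdh, which encodes D-2-hydroxyglutarate dehydrogenase, rose from 47 and 57 to 91 and 98 counts (0.78, SE 0.22), a call lost with DESeq2 (adjusted p = 0.0640), without KO 2 (0.0520) and in the fits on TPM (0.562 to 0.703). The number called was 4 without NC 1, 5 without NC 2 and 4 without KO 2, 4 with DESeq2, and 1 in the filtered fits on TPM.

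The genes whose pattern over the 4 libraries was most like that of a member were found by the Euclidean distance between log2 CPM values, each centred on the gene's own mean, among 10348 tested genes at or above an average log2 CPM of 2. For Egln3 they were Synpo (distance 0.033, log2 fold change 1.05), Hip1r (0.035, log2 fold change 1.02) and Ptpdc1 (0.042, log2 fold change 1.06). For Egln2 they were Pyurf (0.013, log2 fold change -0.49), Ran (0.015, log2 fold change -0.50) and Paip1 (0.018, log2 fold change -0.50). With 4 libraries in 2 groups the distance reflects little more than a change of equal size.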
